A study of Mus musculus with 9 samples.

Results

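Brain RNA of mice with intracerebral hemorrhage (ICH) was compared with that of sham mice, gene by gene and then by cell type and pathway. The comparison covered genes with an RPKM (reads scaled by exon length and by sequencing depth) of 1 or more in 3 or more of the 6 mice and an exon length of at least 300 bases, which left 15935 of the 38621 genes in the table. The series holds 9 C57BL/6 mice, 3 per group (sham, ICH, and feb), and each sample comes from a separate male mouse. The ICH mice were given 30 μl of their own blood by stereotaxic injection and no drug. The sham mice are labelled untreated, and the study describes them as injected with saline. The feb mice received febuxostat before the same blood injection and contributed only to the shared estimate of the spread. The dissected piece of brain and the time from injection to RNA extraction were not given in the sources used here. The tissue was bulk, so fewer cells of a type and less RNA per cell cannot be told apart.

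Autologous blood injection models the bleed itself, because the clot brings red cells, plasma proteins, and thrombin into the tissue without a bacterial enzyme. Hemoglobin from lysing red cells is broken down by heme oxygenase, iron is stored in ferritin, microglia and astrocytes react around the clot, and neurons near it may fire, go silent, or die. Because brain regions differ in the neurons they hold, markers of cortical, striatal, thalamic, and hindbrain neurons also record which tissue went into a sample.

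Between 24483380 and 29538009 reads per mouse were counted on genes in these 6 mice, and all 12 pan-neuronal genes passed the filter. Each mouse was separate, and in a chi-square test of the recovered reads no libraries of a group agreed within counting error. Some libraries stood apart from others of their group. The first principal component held 48.75% of the variance and placed the sham mice at -39.8, 6.38, and -25.9 (replicates 1 to 3) and the ICH mice at 20.5, 29.2, and 9.66, so sham replicate 2 lay next to ICH replicate 3. The Spearman correlation of these 2 mice over genes, 0.985, was the highest of any pair, above the 0.954 to 0.982 of pairs within a group. Sham replicate 1 had the highest value of 16 of 17 transcription factors of the diencephalon, midbrain, and hindbrain and of 10 of 11 cerebellar genes. Their summed RPKM was 45.4, 5.90, and 19.8 in the sham group, against 4.79, 2.43, and 6.75 in the ICH group for the former and 37.2 against 15.6 to 19.2 in the other mice for the latter. Hoxb5, a patterning gene of the hindbrain and spinal cord, was at 3.14 RPKM in sham replicate 1 and at 0 in the other 5 mice, and Gabra6, a receptor subunit of cerebellar granule cells, was at 0.748 and otherwise at 0. ICH replicate 2 had the highest value of 16 of 17 reactive astrocyte genes and of 17 of 17 cell division genes, and ICH replicate 1 that of 6 of 8 erythroid genes.

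A gene was called when the unadjusted p-value of limma was under 0.05, and a called gene with a fold change over 2 was a DEG, the criteria of the study. In the ICH group 1798 genes were called higher, which was 11.3% of the genes tested, and 859 lower, which was 5.39%. DEGs numbered 118 higher (0.741%) and 48 lower (0.301%), of which 72 and 26 were protein-coding. The 3 ICH mice lay wholly above the 3 sham mice in 2722 genes (17.1%) and wholly below them in 1114 (6.99%). No gene had a Benjamini-Hochberg adjusted p under 0.05 in limma (the lowest was 0.127), nor in limma voom on the reads recovered from the RPKM, against 2657 genes at an unadjusted p under 0.05. Without sham replicate 2, 2729 genes were called higher and 1465 lower, and 412 had an adjusted p under 0.05. Without sham replicate 1, 937 were higher and 358 lower, without sham replicate 3, 814 and 381, without ICH replicate 2, 998 and 460, and without ICH replicate 1, 1148 and 736. The median log2 fold change of all genes tested was 0.07, and with the samples scaled to equal medians 1058 genes were called higher and 1489 lower, so the majority depended on the scaling. The values below were therefore read against these background shares and this median.

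Genes of cortical excitatory neurons formed the clearest group. Of 12 members, all tested, 9 were called higher in the ICH group and 0 lower, 8 of the 9 were DEGs, and the median log2 fold change was 1.68. Several members, among them Tbr1, Emx1, and Vxn, listed here as 3110035E14Rik, were named by the study from these samples, so the count is not independent evidence of its direction. Slc17a7 (chromosome 7, 45163949 to 45176142, GRCm38), the vesicular glutamate transporter of cortical projection neurons, had an RPKM of 18.5, 17.9, and 11.9 in the sham group, against 45.2, 66.2, and 32.6 in the ICH group. All ICH mice lay above all sham mice, and the log2 fold change was 1.54 ± 0.29 (SE, n = 3 per group; limma adjusted p = 0.242). Tbr1, a factor of early-born deep-layer neurons, stood at 2.10, 1.5, and 0.869 RPKM in the sham group, against 6.49, 4.62, and 4.76 in the ICH group, without overlap. Neurod2, which drives cortical neuron differentiation, stood at 5.70, 2.14, and 2.05 RPKM against 10.4, 21.3, and 7.09, a log2 fold change of 1.95 ± 0.45. Fezf2, which specifies corticospinal neurons, rose by 1.82 ± 0.52 on the same scale, from 1.66, 0.565, and 0.510 RPKM to 2.13, 5.33, and 2.47. Mef2c, an activity-dependent factor of maturing cortical neurons, rose by 0.85. Emx1, a dorsal telencephalic factor, rose by 1.38.

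Neurod6 showed what a single mouse could do to this list. Its RPKM was 10.3, 0.925, and 1.22 in the sham group, against 7.29, 29.7, and 6.54 in the ICH group, so the groups overlapped at sham replicate 1, and the gene was no longer called without sham replicate 2, sham replicate 3, or ICH replicate 2. The markers that did not pass were Cux2 of the upper layers (log2 fold change -0.03), Lamp5 (0.19), and Rasgrf2 (0.17). The count of 9 was 8 or 9 when any mouse was left out and 9 with equal medians. Slc17a7, Neurod2, Mef2c, and 3110035E14Rik were called in all 18 alternatives. The plot of regional neuron genes shows the mice side by side.

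**Figure D1:**
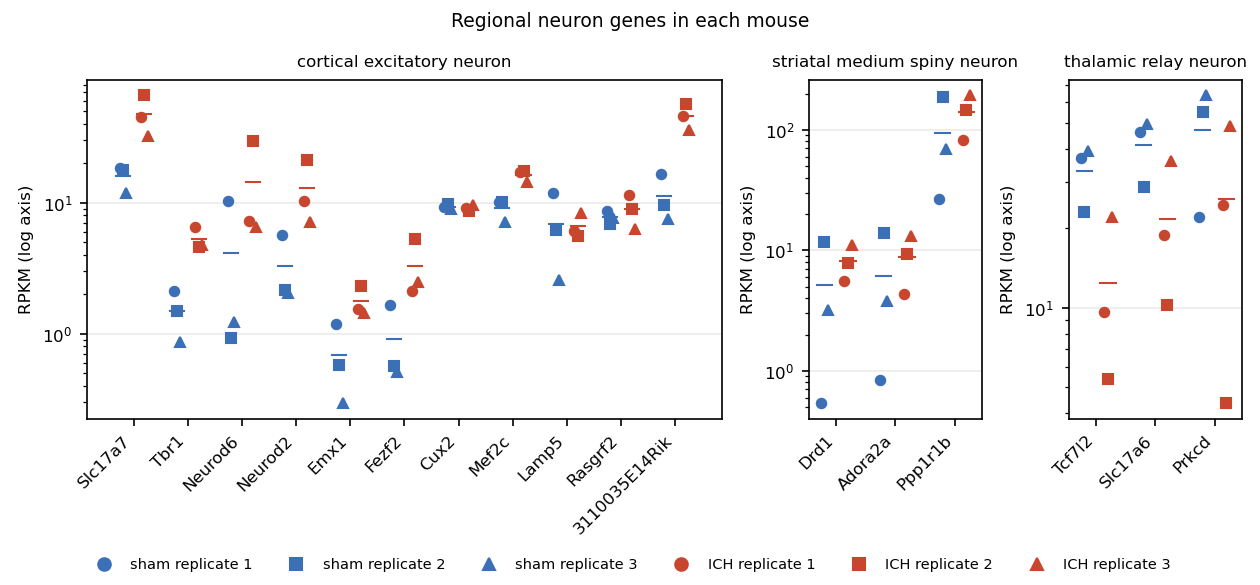
Each point is the RPKM of a gene in 1 mouse (log axis), blue for sham and red for ICH with a marker for each replicate, and short lines are group means. The ICH mice lie above the sham mice in 7 of the 11 cortical genes shown, sham replicate 2 shares the high striatal values of the ICH mice, and ICH replicate 2 has the lowest value of Tcf7l2, Slc17a6, and Prkcd.

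Other regional neuron lists moved with single mice rather than with the groups. Medium spiny neurons are the principal cells of the striatum, and 0 of their 13 genes were called, although all 13 had a positive log2 fold change (median 0.86). Drd1, the dopamine receptor of the direct pathway, had an RPKM of 0.538, 11.8, and 3.21 in the sham group, against 5.56, 7.79, and 11.1 in the ICH group. Adora2a, the adenosine receptor of the indirect pathway, stood at 0.842, 13.9, and 3.76 against 4.32, 9.29, and 13. In both genes sham replicate 1 was the lowest mouse and sham replicate 2 the highest. Sham replicate 2 was the highest mouse in 10 of the 13 genes and sham replicate 1 the lowest in all 13, and without sham replicate 2 all 13 were called higher. Relay neuron genes of the thalamus had the opposite sign, with their extremes in other mice. Of 12 genes, 2 were called lower (median log2 fold change -0.93). ICH replicate 2 was the lowest mouse in all 12 and sham replicate 3 the highest in 11. Tcf7l2 (chromosome 19, 55741810 to 55933654), a Wnt effector that maintains thalamic neuron identity, had an RPKM of 36.9, 23.1, and 39.2 in the sham group, against 9.69, 5.39, and 22.0 in the ICH group. Slc17a6, the vesicular glutamate transporter of subcortical neurons, stood at 46.2, 28.8, and 49.5 against 18.9, 10.3, and 35.9. Their log2 fold changes were -1.61 ± 0.60 and -1.08 ± 0.46, and neither was called without sham replicate 1, sham replicate 3, ICH replicate 1, or ICH replicate 2. Without ICH replicate 3 all 12 were called lower.

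Genes of more caudal regions were low in most mice. Of 17 transcription factors of the diencephalon, midbrain, and hindbrain, many of them named by the study from these samples, only Irx1 and Irx2 passed the filter, and both were called lower, at -1.67 and -2.16, with no call without sham replicate 1, sham replicate 3, ICH replicate 1, or ICH replicate 2. Among 5 cerebellar genes tested, Cbln1, a synapse organizer, was called lower (-0.84), but not without sham replicate 1 or ICH replicate 2. Hypothalamic peptides varied widely between mice. Oxt, oxytocin, had an RPKM of 0, 2.64, and 7.09 in the sham group, against 56.1, 29.9, and 3.48 in the ICH group, and was not called (log2 fold change 3.86 ± 2.32). Called members numbered 0 of 8 hypothalamic, 0 of 3 monoaminergic, and 0 of 5 cholinergic and habenular genes, and 1 of 8 genes of hippocampal fields, C1ql3, a synaptic organizer that rose by 0.90 and kept its call in all 18 alternatives. Because the regional lists moved with the mice, every neuronal result that follows was read beside them, and their part in it was not tested. The plot of list levels by mouse shows these shifts together.

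**Figure D2:**
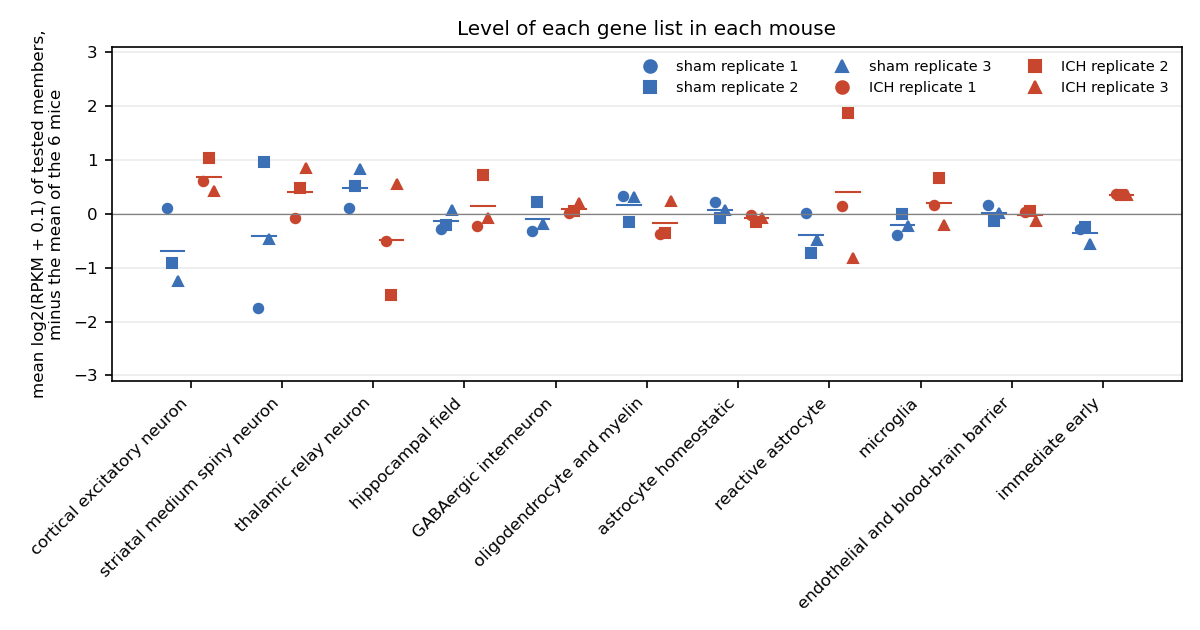
Each point is the mean log2(RPKM + 0.1) of the tested members of a list in 1 mouse, minus the mean of the 6 mice, with group means as short lines. Immediate early genes split by group in every mouse, cortical genes split by group, striatal genes put sham replicate 1 low and sham replicate 2 high, and reactive astrocyte genes put ICH replicate 2 apart.

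The 3 neurofilament genes, which build the axonal cytoskeleton and set axon caliber, were all called lower in the ICH group, and several synaptic genes were among the largest falls. Nefh (chromosome 11, 4938754 to 4948064), the heavy subunit, had an RPKM of 223, 84.5, and 130 in the sham group, against 48.8, 39.1, and 83.8 in the ICH group, a log2 fold change of -1.31 ± 0.42 that was called in all 18 alternatives. Nefm, the medium subunit, stood at 337, 112, and 172 against 80.3, 77.4, and 114, and Nefl, the light subunit, at 414, 148, and 228 against 120, 127, and 155. Nefl and Nefm overlapped between the groups at sham replicate 2, and without sham replicate 1, sham replicate 3, ICH replicate 1, or ICH replicate 2 only 1 of the 3 genes was called. Glra1 (chromosome 11, 55514238 to 55608198), the glycine receptor subunit of brainstem and spinal inhibition, had the largest fall among called genes whose groups did not overlap, -2.30 ± 0.75, with an RPKM of 38.0, 4.04, and 7.84 in the sham group, against 2.79, 1.34, and 2.40 in the ICH group. Glra1 had been named by the study from these samples. Sham replicate 1 was far above the other mice, although the groups did not overlap, and this was also the mouse with hindbrain transcripts. Syt2, the calcium sensor of fast-releasing synapses, fell by 1.63 on the log2 scale and was not called without sham replicate 1, ICH replicate 1, or ICH replicate 2. Vamp1, a vesicle fusion protein of the same synapses, fell by 1.15 and was called in all 18 alternatives. Pvalb, the calcium buffer of fast-spiking interneurons, stood at 63.3, 33.4, and 41.6 RPKM against 15.4, 22.2, and 38.0, and its fall of -0.91 was not called without sham replicate 1, ICH replicate 1, or ICH replicate 2. Of 9 GABAergic interneuron genes, Pvalb was called lower and Sst, the neuropeptide somatostatin, higher (0.55), the latter only in 6 of 18 alternatives. The other pan-neuronal calls among 12 members were Tubb3, a neuronal tubulin (-0.43), Rbfox3, a splicing factor of neurons (0.32), and Syt1 (0.29), none of which was called with equal medians except Tubb3.

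Immediate early genes are switched on within minutes of synaptic activity, growth factors, or stress, without new protein synthesis, largely by CREB bound at cyclic AMP response elements (CRE) and by SRF at CArG boxes. In the ICH group 12 of 19 tested members were called higher and 0 lower, where the background share was 11.3%, and 6 were DEGs. The ICH mice lay wholly above the sham mice in 9 members, and the median log2 fold change was 0.87. Arc, Nr4a2, and Klf10 had been named by the study from these samples, so their rise is not independent evidence. The Nr4a orphan nuclear receptors were the only transcription factor family of the list whose 3 members all rose with no overlap between the groups, so the 250 bases before the start of each are shown, from RefSeq for GRCm38.p6, 5′ to 3′ on the strand of the gene, with the CRE core TGACG or its complement in capitals. The windows lie at chr15:101266596-101266845 (plus strand) for Nr4a1, chr2:57124004-57124253 (minus strand) for Nr4a2, and chr4:48045055-48045304 (plus strand) for Nr4a3.
Nr4a1: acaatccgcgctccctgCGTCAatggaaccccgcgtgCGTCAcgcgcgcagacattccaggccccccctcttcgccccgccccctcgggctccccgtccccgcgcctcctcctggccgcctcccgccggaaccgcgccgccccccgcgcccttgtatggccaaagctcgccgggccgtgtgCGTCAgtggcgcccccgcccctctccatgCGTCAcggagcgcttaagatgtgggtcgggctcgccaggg
Nr4a2: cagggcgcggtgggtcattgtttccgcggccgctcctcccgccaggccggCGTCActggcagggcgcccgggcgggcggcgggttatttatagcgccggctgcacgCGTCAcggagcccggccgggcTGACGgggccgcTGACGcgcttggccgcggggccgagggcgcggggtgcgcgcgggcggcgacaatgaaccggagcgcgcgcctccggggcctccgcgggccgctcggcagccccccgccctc
Nr4a3: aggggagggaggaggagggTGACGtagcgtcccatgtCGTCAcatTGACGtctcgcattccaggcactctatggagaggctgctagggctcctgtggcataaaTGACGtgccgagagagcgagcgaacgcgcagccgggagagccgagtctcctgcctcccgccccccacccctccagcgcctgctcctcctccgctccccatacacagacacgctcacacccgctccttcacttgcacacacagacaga
Each of the 3 windows holds 4 copies of the core.

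The promoter table gave windows of 250 bases before to 50 after the start for 16 of the 22 listed genes and for 8 of the 12 that rose. Bdnf has 7 windows, Egr2 5, and Homer1 2, so the 16 genes gave 27 windows, which share letters where starts lie close. The core TGACG was found on either strand in 16 of the 27 (59.26%), in 7 of the 9 windows of genes that rose (77.78%), in 20.81% of all 32851 windows, and in 30.04% of the 13153 windows of genes tested. The full CRE TGACGTCA, which contains the core, was found in 2 of the 27 (7.41%), those of Dusp1 and Btg2, neither of which was called, and in 1.79% of all windows. The CArG box was found in 4 of the 27 (14.81%), all of them windows of Egr2, which did not pass the filter, and in 1.63% of all windows. The E-box CACGTG was found in 3 of the 27 (11.11%) and in 7.15% of all windows. Among windows of genes tested, the full CRE was found in 2.92%, the CArG box in 1.31%, and the E-box in 9.53%. Of the 9 windows of genes that rose, 0 held a full CRE, a CArG box, or an E-box. These are matches of letters and not measured binding.

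Arc (chromosome 15, 74669083 to 74672570), a capsid-like protein that removes AMPA receptors from synapses, had an RPKM of 20.3, 19.6, and 13.8 in the sham group, against 36.5, 29.2, and 52.7 in the ICH group. The groups did not overlap, and the log2 fold change was 1.11 ± 0.21. Egr1, a zinc finger factor induced by activity, stood at 8.4, 11.3, and 7.39 against 19.8, 12.6, and 23.9, a rise of 1.02 ± 0.24. In Egr1 the nearest mice of the groups were sham replicate 2 and ICH replicate 2. Nr4a1 stood at 4.99, 6.53, and 3.03 RPKM against 9.58, 6.90, and 12.9, a rise of 1.02. Nr4a2, which also maintains dopamine neurons, stood at 3.65, 1.40, and 3.15 against 5.20, 9.80, and 4.31, a rise of 1.22. Nr4a3 stood at 2.08, 1.59, and 1.15 against 2.54, 4.25, and 2.5, a rise of 0.90. All 3 receptors were called whichever mouse was left out. Junb, an AP-1 subunit, stood at 5.66, 6.04, and 4.47 against 8.24, 9.60, and 8.84, and its rise of 0.72 ± 0.14 had the smallest standard error of the list. Klf10, a TGF-beta induced factor, rose by 1.04, Fosl2, an AP-1 subunit, by 0.87, and Homer1, a postsynaptic scaffold, by 0.74, each without overlap. Nr4a1, Nr4a3, Junb, Klf10, Fosl2, and Homer1 were named after their values were seen.

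Not every immediate early gene followed. Fos, the classic activity marker, had an RPKM of 5.74, 2.91, and 2.86 in the sham group, against 5.87, 4.64, and 4.61 in the ICH group, where sham replicate 1 reached the ICH range, and its log2 fold change of 0.45 was not called. Jun had a log2 fold change of 0.28 and was not called, and only ICH replicate 2, at 40.6 RPKM, lay outside the 20.4 to 23.9 of the other mice. Npas4, which is restricted to neurons and to calcium entry, stood at 0.919, 1.28, and 0.944 against 4.47, 0.951, and 2.75. Its call held without ICH replicate 2 and was lost without any other mouse. Egr3 and Egr4 were called, at 0.98 and 0.96, with overlap at sham replicate 2, and both lost the call without sham replicate 1 or sham replicate 3, and Egr4 also without ICH replicate 1 or ICH replicate 3. Dusp1 (-0.08), Ier2 (0.04), Btg2 (0.33), Nptx2 (0.23), and Bdnf (0.61) were not called. The count of 12 ranged from 9 to 12 with a mouse left out and was 11 with equal medians. Cortical excitatory neurons express these genes at rest, and the cortical list was higher in the same mice; its part in this result was not tested.

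**Figure D3:**
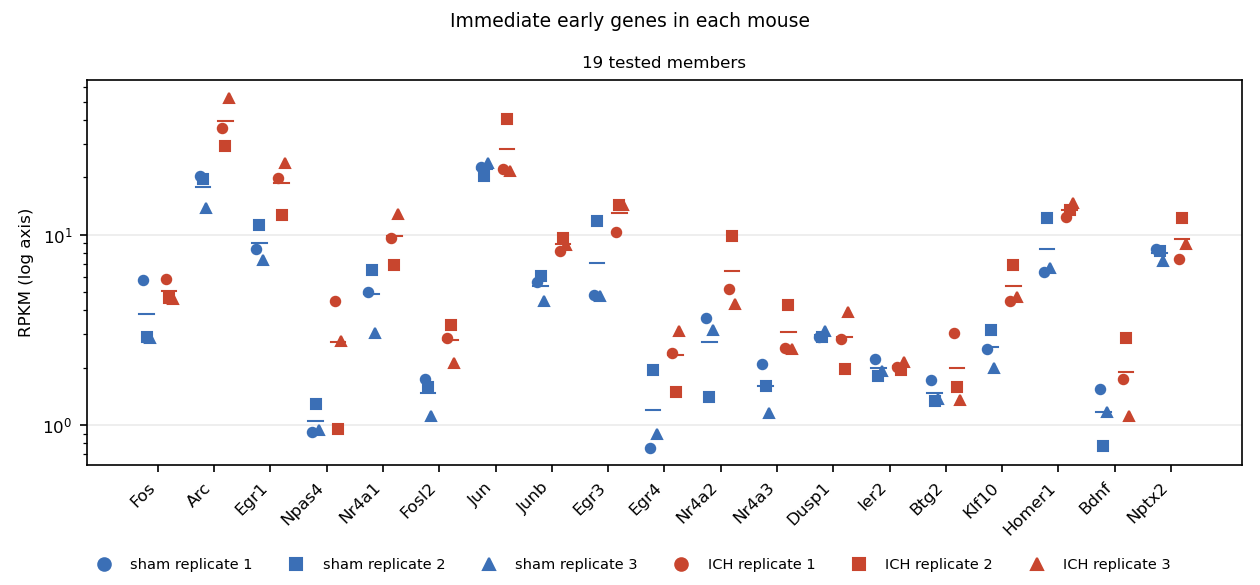
RPKM (log axis) of the 19 tested immediate early genes in each of the 6 mice, with group means as short lines. Red and blue points are separate for Arc, Egr1, Nr4a1, Nr4a2, Nr4a3, Fosl2, Junb, Klf10, and Homer1, and they overlap for Fos, Jun, Dusp1, and Ier2.

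Some clock and glucocorticoid-responsive genes were also called higher, where 11.3% of all genes tested were. Of 17 circadian clock genes, 4 were called higher, and 2 with equal medians. Their median log2 fold change was 0.13 beside 0.07 for all genes, and Dbp (-0.08) and Arntl (0.05) were not called. Per2, a repressor arm of the clock that is also induced by cyclic AMP, had an RPKM of 5.30, 7.28, and 5.47 in the sham group, against 10.3, 9.89, and 8.78 in the ICH group, a rise of 0.69 ± 0.13 without overlap. Per1, its paralog, stood at 7.67, 10.2, and 8.90 against 15.3, 10.3, and 16.7, a rise of 0.63. Both were called in all 18 alternatives, whereas Nr1d1 (0.19) and Tef (0.33) were not called with any mouse left out other than sham replicate 2. Of 15 glucocorticoid response genes, 3 were called higher, among a list in which Hif3a was known from these samples. Without sham replicate 2, 1 was called higher and 1 lower. The median log2 fold change of the list was 0.39, and Fkbp5 (0.57) and Tsc22d3 (-0.09) were not called. Zbtb16, a direct receptor target, stood at 9.31, 3.56, and 5.77 against 15.3, 16.1, and 10.6, a rise of 1.24 that was not called without sham replicate 2. Sgk1, a hormone-induced kinase, rose by 0.93 and lost its call without sham replicate 1, sham replicate 2, ICH replicate 1, or ICH replicate 3. Klf9 rose by 0.44 and lost its call without ICH replicate 3.

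Genes of excitatory transmission rose in part. Of 27 glutamate receptor and auxiliary subunit genes, 8 were called higher and 1 lower, against 11.3% and 5.39% of all genes tested. Their median log2 fold change was 0.22 beside 0.07 for all genes, with 17 positive and 10 negative. Gria2, the subunit that makes AMPA receptors impermeable to calcium, had an RPKM of 22.6, 40.8, and 27.8 in the sham group, against 52.4, 49.0, and 46.3 in the ICH group, a rise of 0.74 ± 0.23. Gria3, another AMPA receptor subunit, stood at 10, 15.9, and 11.1 against 22.2, 16.6, and 18.3, a rise of 0.64. Grin2a, the mature NMDA receptor subunit, rose by 0.59, and these 3 genes were called in all 18 alternatives. By class, 2 of 4 AMPA, 2 of 6 NMDA, 2 of 5 kainate, and 2 of 3 auxiliary subunit genes were called higher, and 0 of 7 metabotropic receptor genes. The class medians were 0.53 (AMPA), -0.0066 (NMDA), 0.32 (kainate), 0.59 (auxiliary), 0.22 (metabotropic), and -0.095 (delta receptors). Grin2d was called lower (-0.39), but not when any mouse other than ICH replicate 3 was left out. The 8 rises were 14 without sham replicate 2 and 3 without sham replicate 1. Of 22 GABA and glycine receptor and transporter genes, 3 were called lower and 1 higher, against 5.39% and 11.3% of all genes tested. Their median log2 fold change was -0.07. Besides Glra1, the glycine transporter Slc6a9 (-0.53) and the astrocytic GABA transporter Slc6a11 (-0.82) fell, both without overlap, and both lost the call without sham replicate 1, sham replicate 3, or ICH replicate 2.

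Clustered protocadherins, which give each neuron a surface identity code, had called members mainly in the alpha cluster. All 13 alpha genes were called higher with no overlap, at log2 fold changes of 0.26 to 0.32, beside 0 of 14 beta genes and 2 of 22 gamma genes, and the difference between clusters was not tested. Pcdha12 had an RPKM of 9.53, 10.6, and 9.18 in the sham group, against 12, 12.6, and 12 in the ICH group. Alpha genes share their constant exons, so reads there can be counted for each of them, and the 13 values are not independent measurements. The median log2 fold change was 0.28 for the gamma genes beside 0.29 for the alpha genes, and without sham replicate 2 all 22 gamma genes and 4 beta genes were called higher. The gamma gene Pcdhgc5 rose by 0.46, but not without sham replicate 1, sham replicate 3, or ICH replicate 2.

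Nuclear genes of the respiratory chain were lower in the ICH group by small amounts. These genes encode most subunits of the complexes that pass electrons to oxygen and of the ATP synthase that uses the resulting proton gradient. Of 80 members tested, 24 were called lower, against a background of 5.39%, and 1 higher, and in 33 the ICH mice lay wholly below the sham mice, against 6.99%. No member was a DEG, and the median log2 fold change was -0.16, or -0.23 with equal medians, where 34 were lower and 0 higher. Complex I, the entry point of electrons from NADH, had 11 of 36 members called lower. Ndufs4 (chromosome 13, 114287795 to 114388094), a complex I subunit whose loss causes Leigh syndrome, had an RPKM of 43.1, 33.4, and 43.4 in the sham group, against 24.8, 25.1, and 26.9 in the ICH group, a fall of -0.63 ± 0.13 that was called in all 18 alternatives. Complex II had 1 of 4, complex III 2 of 8, complex IV 4 of 15 called lower and 1 higher, and the ATP synthase 6 of 17. Cox4i2, a hypoxia-linked complex IV isoform, stood at 3.65, 2.18, and 2.44 against 2.02, 1.64, and 1.74, a fall of -0.56 that was lost without sham replicate 1 or ICH replicate 2. Atp5b, the catalytic subunit of the synthase, stood at 225, 176, and 204 against 150, 154, and 167, a fall of -0.35 called in all 18 alternatives. Atp5k, an accessory subunit, had the largest fall, -0.96 ± 0.37, but the call was lost without any single mouse except sham replicate 2. Cox7c, a complex IV subunit, was the exception that rose (0.29).

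The number of falls depended on which mice of either group were in the comparison. Sham replicate 1 had the highest value of 46 of 82 genes of the list, and 8 were called lower without it, 11 without sham replicate 3, 12 without ICH replicate 1, 13 without ICH replicate 2, and 35 without sham replicate 2. Sham replicate 1 was also the mouse with the highest hindbrain and neurofilament values, and the part of regional makeup in the respiratory chain result was not tested. Of 11 protein-coding genes of the mitochondrial genome, 2 were called lower, mt-Nd6 (-0.39) and mt-Atp6 (-0.51). The mt-Atp6 reads are uncertain, since near-identical copies of that stretch lie in the nuclear genome, and mt-Nd6 lies opposite the other genes while the use of strand in counting was not given. Glycolysis and hypoxia genes had 5 of 22 called higher and 0 lower, against 11.3% and 5.39% of all genes tested. With equal medians 3 were called higher and 1 lower. Their median log2 fold change was 0.10 beside 0.07 for all genes, and Vegfa (-0.06) and Bnip3 (0.02) were not called. P4ha1, a HIF-induced prolyl hydroxylase of collagen, stood at 7.66, 9.69, and 7.65 RPKM against 10.7, 13.2, and 12.6, a rise of 0.55 ± 0.13 called in all 18 alternatives. Ldha, lactate dehydrogenase, also rose by 0.55, but not without sham replicate 1, sham replicate 3, or ICH replicate 2.

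**Figure D4:**
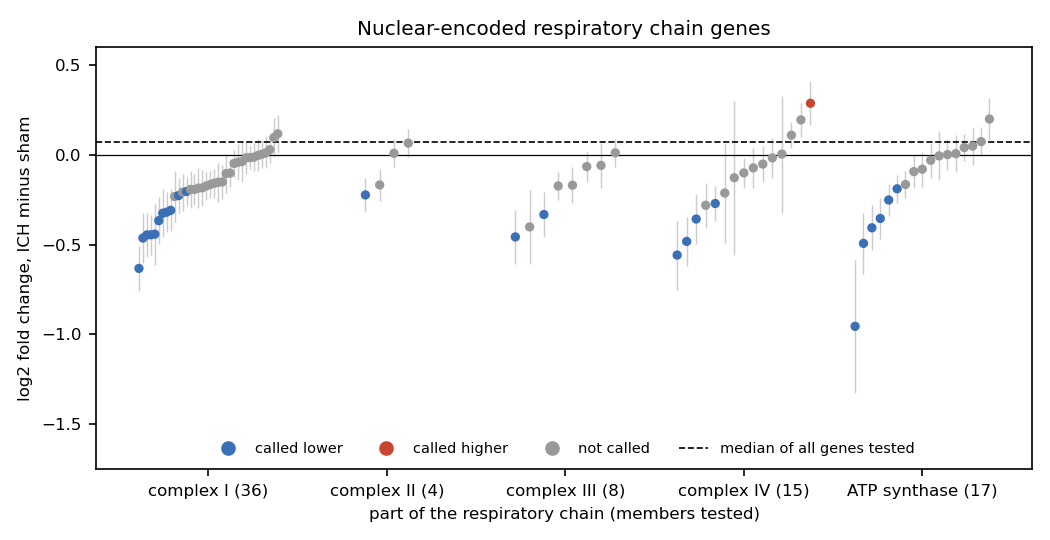
Each point is the log2 fold change (ICH minus sham) of a nuclear-encoded respiratory chain gene with its standard error, grouped by complex, blue where called lower and red where called higher. The median of all genes tested (dashed) is 0.07, and 24 of the 80 points are blue.

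No red cell or heme gene was called between the groups. Hba-a1, an alpha globin, had an RPKM of 9.42, 11.1, and 11.0 in the sham group, against 34.0, 6.74, and 6.44 in the ICH group, and Hbb-bs, a beta globin, stood at 13.7, 17.5, and 19.5 against 64.9, 14.0, and 12.6. Only ICH replicate 1 was high, and without it the log2 fold change of Hba-a1 turned from 0.12 to -0.66. Hba-a1 and Hba-a2 are near-identical copies, so their reads can be split between them. Of 5 erythroid genes tested, 0 were called. Hmox1, the inducible heme oxygenase, stood at 4.70, 2.01, and 3.64 RPKM against 4.60, 6.86, and 1.70, with full overlap and a log2 fold change of 0.21 ± 0.66. Fth1, the ferritin heavy chain, stood at 780, 621, and 772 against 638, 776, and 783 (0.02 ± 0.14), and Ftl1, the light chain, at 18.2, 18.3, and 16.5 against 22.3, 28.6, and 18.0 (0.35 ± 0.17). In all, 0 of 16 heme and iron genes were called, with a median of 0.08 beside 0.07 for all genes. Of 20 Nrf2 and ferroptosis defense genes, 1 was called higher and 2 lower, against 11.3% and 5.39% of all genes tested. Their median log2 fold change was 0.04, with 13 positive and 7 negative. Nfe2l2 (0.25), Nqo1 (0.22), and Slc7a11 (0.27) were among the positive ones and were not called. Srxn1, which repairs peroxiredoxins, stood at 24.1, 21.7, and 23.7 against 18.0, 18.3, and 18.5, a fall of -0.34 ± 0.08, and G6pdx, the source of NADPH in the pentose phosphate pathway, fell by 0.48 on the log2 scale. Both were called in all 18 alternatives. Acsl4, which makes phospholipids prone to peroxidation, rose by 0.40, but not without sham replicate 1, sham replicate 3, or ICH replicate 2. Of 10 purine breakdown and adenosine genes, Gda, a guanine deaminase of forebrain neurons (1.11), and Ada, adenosine deaminase (0.53), were called higher, and neither without sham replicate 1, sham replicate 3, ICH replicate 1, or ICH replicate 2.

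Reactive astrocyte genes were high in a single ICH mouse. Gfap, the astrocyte intermediate filament, had an RPKM of 143, 57.3, and 88.1 in the sham group, against 128, 573, and 63.3 in the ICH group. Serpina3n, a secreted protease inhibitor of reactive astrocytes, stood at 5.89, 3.06, and 4.67 against 7.70, 77.4, and 2.77, so ICH replicate 2 was 10.1 times the next mouse and ICH replicate 3 the lowest of the 6. Vim and Timp1 were also highest in this mouse, with 64.6 RPKM of Vim and 9.93 of Timp1 in ICH replicate 2 and at most 19.5 and 3.04 elsewhere. Of 10 reactive astrocyte genes tested, 0 were called (median log2 fold change 0.89). Without ICH replicate 2 the median of the reactive astrocyte list was 0.065, with 0 called higher and 1 lower, and without ICH replicate 3 it was 1.35, with 9 called higher. Microglial identity genes had 5 of 18 called higher, against 11.3%, and all 18 had a positive log2 fold change. Tmem119, a homeostatic microglial membrane protein, stood at 1.96, 2.66, and 2.64 RPKM against 3.28, 5.47, and 2.77, a rise of 0.60 ± 0.23. Cx3cr1, the fractalkine receptor, stood at 5.21, 6.59, and 5.29 against 7.62, 10.1, and 6.14, a rise of 0.45. ICH replicate 2 was highest in 16 of the 18, and 0 were called with equal medians, without sham replicate 1, or without ICH replicate 2, against 12 without ICH replicate 3. Of 9 activated microglia and macrophage genes, Cd163, a hemoglobin-haptoglobin scavenger receptor, was called higher (0.62) and Apoe lower (-0.39), both lost without sham replicate 1 or sham replicate 3.

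Cytokine and leukocyte genes gave little signal. Il1b had an RPKM of at most 0.421 and Il6 of at most 0.0630 in any of the 6 mice, and both maxima were in sham replicate 2. Neither passed the filter. Il18 stood between 8.70 and 10.4 in the 6 mice, with a log2 fold change of 0.07 ± 0.10. Of 8 cytokine, chemokine, and inflammasome genes tested, 0 were called, and the only leukocyte gene tested of 16 was not called. Interferon and antigen presentation genes had 3 of 15 called higher, against 11.3% of all genes tested, and 2 with equal medians. Their median log2 fold change was 0.11 beside 0.07 for all genes, with 10 positive and 5 negative. B2m, the light chain of MHC class I, stood at 12.9, 11.0, and 12.2 RPKM against 17.6, 16.6, and 12.9, a rise of 0.37 that was lost without ICH replicate 1. Irf9 rose by 0.51 and Ifi27 by 0.55, both lost without sham replicate 2 or ICH replicate 2, and ICH replicate 2 was highest in 17 of 24 genes of the list.

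Calls in the lists of homeostatic astrocytes and the myelin lineage were read beside the 11.3% higher and 5.39% lower of all genes tested. Of 14 homeostatic astrocyte genes, 2 were called lower and 1 higher, and 11 had a negative log2 fold change (median -0.22). In 4 of them the ICH mice lay wholly below the sham mice, against 6.99% of all genes. With equal medians 4 were called lower and 0 higher, and with a mouse left out 1 to 5 were called lower. Ntsr2, a neurotensin receptor, stood at 16.6, 13.8, and 15.2 RPKM against 10.7, 5.55, and 10.1, a fall of -0.83 ± 0.24 called in all 18 alternatives. Atp1b2, a sodium pump subunit, fell by 0.33 on the log2 scale and Slc1a2, the main glutamate transporter, rose by 0.27, both lost without sham replicate 1, sham replicate 3, ICH replicate 1, or ICH replicate 3. All 16 oligodendrocyte and myelin genes had a negative log2 fold change (median -0.34), but only Olig1, a lineage factor, was called (-0.43), and that was lost without sham replicate 1, sham replicate 3, ICH replicate 1, or ICH replicate 2. Of 10 oligodendrocyte precursor genes, Vcan, a matrix proteoglycan, was called higher (0.39) and Lhfpl3 lower (-0.47), both lost without sham replicate 1.

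No tested member of the vessel cell and meningeal lists was called. Of 17 endothelial and blood-brain barrier genes, 10 pericyte and smooth muscle genes, 13 meningeal fibroblast and collagen genes, and 3 endothelial activation genes, 0 were called, with medians of -0.09, -0.05, 0.02, and -0.05. Matrix metalloproteinases cut basement membrane and surface proteins. Of 13 tested genes of a list of them, related proteases, and inhibitors, 3 were called higher, against 11.3% of all genes tested. The median log2 fold change of the list was 0.06 beside 0.07 for all genes. Mmp17 (chromosome 5, 129584169 to 129611099), a membrane-anchored protease, had an RPKM of 5.49, 10.1, and 5.19 in the sham group, against 14.0, 15.0, and 13.4 in the ICH group, a rise of 1.08 ± 0.22 without overlap. Mmp16, another membrane type, stood at 4.23, 5.01, and 4.21 against 6.02, 7.30, and 5.59, a rise of 0.48, and both were called in all 18 alternatives. Adam10, a sheddase of neuronal surface proteins, rose by 0.26, but not without sham replicate 1 or ICH replicate 2. Of 5 coagulation and fibrinolysis genes tested, F3, tissue factor, rose by 0.45 and Serpini1, the neuronal inhibitor of tissue plasminogen activator, by 0.55, both lost without sham replicate 2, ICH replicate 1, or ICH replicate 2. Of 11 choroid plexus genes, Kcnj13 was called (0.49), and of 7 ependymal cilia genes, Rsph1 (0.30), both lost without sham replicate 2, sham replicate 3, or ICH replicate 1.

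Wnt genes had calls in both directions, where 11.3% of all genes tested were called higher and 5.39% lower. Their median log2 fold change was 0.04 beside 0.07 for all genes, with 18 positive and 13 negative. Of 31 tested, 4 were called higher and 3 lower, and Wisp1, Wnt7b, and Frzb were in the list because the study had named them from these samples, of which only Wnt7b passed the filter. Wnt7b, a ligand of the canonical pathway, stood at 1.96, 2.33, and 2.30 RPKM against 4.04, 8.5, and 2.46, a rise of 0.97 ± 0.36 without overlap whose call was lost without sham replicate 1, and its direction is not independent evidence. Sfrp2, a secreted Wnt antagonist, stood at 1.92, 1.33, and 1.69 RPKM against 1.10, 0.795, and 0.993, a fall of -0.71 ± 0.18, and Sfrp5, of the same family, stood at 3.01, 1.39, and 3 against 1.42, 0.900, and 0.844, a fall of -1.11 ± 0.33. Both were called whichever mouse was left out. Dkk3, a divergent Dickkopf protein of forebrain neurons, rose by 1.08 and lost the call without sham replicate 2, sham replicate 3, or ICH replicate 2. The receptors Fzd3 (0.44) and Fzd4 (0.46) rose and Fzd10 (-1.15) fell, none of them in every comparison that left out a mouse. Of 10 neurotrophic factors and receptors, Nrtn, neurturin, and Ret, the receptor tyrosine kinase of its family, were both called lower without overlap, and Nrtn had been named by the study from these samples. Ret stood at 4.14, 2.72, and 5.19 RPKM against 1.82, 0.815, and 2.32, a fall of -1.30 ± 0.41, and Nrtn at 1.85, 1.42, and 1.53 against 0.639, 0.595, and 1.05, a fall of -1.01 ± 0.22. Ntrk3, the receptor of neurotrophin-3, rose by 0.42, but not without sham replicate 1, sham replicate 3, ICH replicate 1, or ICH replicate 2.

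Cell division genes were highest in ICH replicate 2, in all 17 members. Mki67, Top2a, and Rrm2 had been named by the study from these samples. Of the list 7 were tested and 1, Mki67, was called, with an RPKM of 2.10, 2.76, and 2.26 in the sham group, against 4.85, 10.8, and 2.59 in the ICH group. Mki67 lost the call without sham replicate 1 or sham replicate 3. The median log2 fold change of the cell division and DNA replication list was 0.53, and 0.16 without ICH replicate 2. Transcripts of replication-dependent histones mostly lack a poly(A) tail and are kept by rRNA depletion. Of these genes 13 of 58 were called higher and 0 lower, against 11.3% and 5.39% of all genes tested. With equal medians 9 were called higher and 2 lower. The 13 rises were 6 without ICH replicate 2, 7 without sham replicate 3, 8 without sham replicate 1, and 23 without ICH replicate 3. Hist1h4f, a histone H4 gene, stood at 9, 10.6, and 8.37 RPKM against 13.7, 15.4, and 14.6, a rise of 0.64 ± 0.13 called in all 18 alternatives. Histone genes have near-identical coding sequences, so reads may be shared among copies. Of 8 neuroblast genes, Sox11 was called higher (0.48), but not without sham replicate 1, sham replicate 3, ICH replicate 1, or ICH replicate 2.

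The remaining lists held no share of calls above the background of all genes. Called members numbered 0 of 10 neuronal injury and cell death genes, 2 of 19 neuropeptide precursors (Sst and Nmb, both higher and both lost without sham replicate 1, sham replicate 3, or ICH replicate 1), and 7 higher and 4 lower of 77 cytosolic ribosomal protein genes (2 and 8 with equal medians). Ddit3, the CHOP factor of the unfolded protein response, was the only call among 20 heat shock and unfolded protein genes (-0.41, lost without sham replicate 1, sham replicate 3, or ICH replicate 1).

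**Figure D5:**
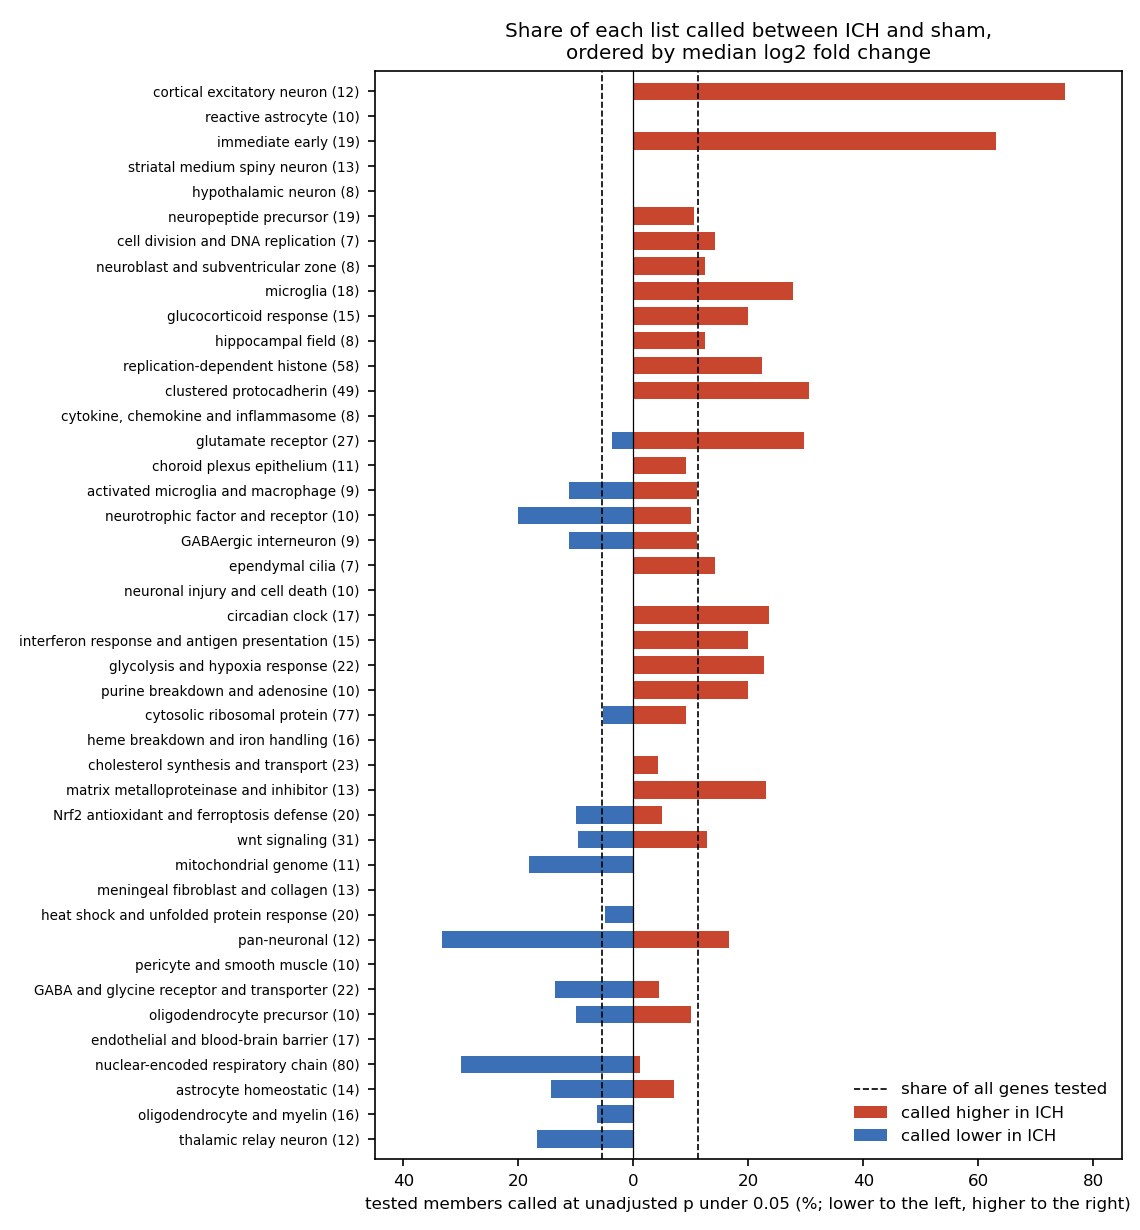
Bars give the percentage of tested members called higher (red, right) or lower (blue, left) in the ICH group for each list with at least 7 tested members, the number tested in parentheses, and dashed lines give the share of all genes tested. Cortical and immediate early genes reach furthest to the right, and pan-neuronal and respiratory chain genes furthest to the left.

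Over all genes, 9 of the 10 lowest p-values belonged to rises. Olfm1 (chromosome 2, 28192992 to 28230736), a secreted synaptic glycoprotein, had an RPKM of 69.4, 73.6, and 68.1 in the sham group, against 119, 141, and 110 in the ICH group. The log2 fold change was 0.80 ± 0.10, with the lowest p of all genes tested (limma adjusted p = 0.127). Kcnt2, a sodium-activated potassium channel, stood at 1.91, 2.47, and 2.24 against 3.98, 4.22, and 4.16, a rise of 0.88 ± 0.11. Ldlrad4, an inhibitor of TGF-beta signaling, stood at 13.7, 14.3, and 14.4 against 20.2, 21.2, and 22.4, a rise of 0.59 ± 0.07. The other genes of the 10 with the lowest p were Trib1, a pseudokinase (0.73), Ncald, a neuronal calcium sensor (0.52), Hivep2, a zinc finger factor (0.65), Cacnb3, a calcium channel subunit (0.68), Gm16000 (0.73), 9330121K16Rik (1.47), and Gm6563 (-0.68), and all 10 were called in every alternative in which they were fitted. Gm16000 is annotated as antisense, and since the use of strand was not given, its reads cannot be told apart from those of the gene opposite.

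Among protein-coding genes with large changes and no overlap, Kcnv1, a modulatory potassium channel subunit, stood at 0.964, 2.46, and 0.696 RPKM against 4.26, 4.09, and 3.84, a rise of 1.68 ± 0.36. Hspb3, a small heat shock protein, rose by 1.64, Bmp3, an antagonist of BMP signaling, by 1.64, and Prss12, a synaptic serine protease, by 1.63, and all 4 kept the call whichever mouse was left out. Dkkl1 (1.60) and the T cell receptor segment Trbc2 (1.85) were near or below an RPKM of 1 in the sham mice and lost the call without sham replicate 2, sham replicate 3, or ICH replicate 3. Erdr1 (1.72) kept its call only without sham replicate 3 of the comparisons that left out a mouse. Aldh1a1, a retinoic acid synthesizing enzyme, stood at 55.0, 27.1, and 47.3 against 16.7, 13, and 26.7, a fall of -1.20 ± 0.33. Plekhd1 (-1.40), Ccer2 (-1.18), and the pseudogene Rpl21-ps15 (-1.13) fell whichever mouse was left out, whereas Sptssb (-1.40) and Apln, the ligand of the apelin receptor (-1.07), lost the call without sham replicate 1, sham replicate 3, ICH replicate 1, or ICH replicate 2. Near the expression limit, 461 genes passed with an RPKM of at least 1 in exactly 3 mice, and 584 fell just short with exactly 2. Of the genes tested, 67 passed only through the 3 ICH mice, of which 43 were called higher, and 21 only through the 3 sham mice, of which 15 were called lower, which the filter itself favors.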

How the data were processed

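Brain RNA of 9 mice was sequenced, and the 3 sham and 3 ICH mice were compared here. The authors depleted rRNA, prepared stranded libraries with UMIs, trimmed reads with Trimmomatic 0.36, merged the reads of each UMI, mapped these to GRCm38, summed them over exons in featureCounts (Subread 1.5.1), and deposited RPKM values with the exon length of each gene. The authors tested for DEGs with edgeR 3.12.1. The use of strand, the annotation release, and how ambiguous reads were treated were not given in the sources used here. RPKM is already scaled for depth and length. Whole reads (tolerance 0.1 of a read) were recovered for 100% of the values, and 3 reads on 1 kb of exon correspond to an RPKM of 0.102 to 0.123 in these 6 mice, a limit of counting error only.

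The test was limma 3.58.1 in R 4.3.3 (lmFit, eBayes with trend) on log2(RPKM + 0.1), with all 9 samples in 1 fit and no block, as a count test was not used on RPKM. Fold changes on this scale understate the change of low genes. The Benjamini-Hochberg adjustment covered the 15935 genes tested. Exact permutation tests of 3 mice against 3 cannot go below 0.1 (two-sided). The procedure was tested on simulated data. Other steps ran in Python 3.11.15 with pandas 2.3.3 and numpy 2.4.6. Gene types and promoter windows came from reference tables for GRCm38. Groups share replicate numbers in the labels, which state no pairing and no batch.

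The comparison, the 46 gene lists written by name, and the 5 families taken by symbol (51 lists, 1029 genes, 832 tested) were chosen with earlier results of these data known. Lists were described by counts and medians beside those of all genes, with no test. Named genes were the first 3 of each list, the 3 largest rises and falls among its called members, the 12 largest rises and falls over all genes among called genes without overlap (predicted names left out), and the 10 lowest p-values. Genes named outside this rule (in the cortical, immediate early, circadian, glutamate receptor, respiratory chain, histone, pan-neuronal, regional, and Wnt lists) were chosen after their values were seen. Alternatives were pseudocounts of 1 and 0.01, other filters, 3 other scalings, a fit of the 6 samples only, an untrended eBayes, a replicate block, voom on the recovered reads, and each mouse left out in turn. Some named members are not reported here.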

Additional observations from a re-analysis of the deposited data

How the results depend on the processing

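Against 1798 genes called higher and 859 lower, 1041 were higher with an RPKM of at least 5, 1058 and 1489 were higher and lower with equal medians, 1127 and 1394 with quantile normalization, 1054 and 1549 with the length trend removed, and 1440 were lower with no filter. DEGs (118 and 48) became 47 and 23 with a pseudocount of 1, 423 and 312 with an RPKM of at least 0.1 in 3 of the 9 samples, 471 and 345 with no filter, and 46 and 20 with an RPKM of at least 5, and 7 and 9 genes passed adjustment in the wide filter and with no filter. With a mouse left out the counts ranged from 814 to 2729 higher, 358 to 1465 lower, 65 to 344 DEGs higher, 22 to 114 DEGs lower, and 0 to 412 adjusted. Of the genes called in the comparison, 2343 were called in the same direction without sham replicate 2 and 1917 with equal medians. List medians moved by more than their spread to -0.84 (cerebellar), 0.066 (cytokine), 0.089 (endothelial), and 0.13 (Wnt) with an RPKM of at least 5, to 0.11 (cytokine), 0.0079 (purine), -0.17 (endothelial activation), and -0.055 (Wnt) with quantile normalization, to -0.040 (Nrf2) and -0.23 (respiratory chain) with equal medians, to -0.028 (Nrf2) with the length trend removed, and to 0.64 (immediate early) with a pseudocount of 1. With a mouse left out the medians ranged from -0.056 to 0.57 (hippocampal), -0.038 to 0.43 (GABAergic interneuron), -0.30 to -0.059 (homeostatic astrocyte), -0.094 to 0.56 (activated microglia), 0.13 to 0.36 (cytokine), -0.15 to 0.12 (oligodendrocyte precursor), -0.087 to 0.11 (endothelial activation), 0.69 to 0.91 (immediate early), -0.12 to 0.51 (interferon), -0.00099 to 0.12 (Wnt), and -0.031 to 0.13 (mitochondrial genome). Hba-a1 reversed to -0.66 without ICH replicate 1, with a range of -0.66 to 0.53 over the mice left out. The cause was not tested. The replicate block called 1312 genes higher and 651 lower. The same-numbered deviations correlated at -0.066, -0.062, and 0.037, beside -0.12 to 0.14 for mice of unlike number. With 3 mice per group these correlations cannot decide whether the numbers pair the mice. Of 125 named genes called, 32 lost the call with the block, 27 with equal medians, and between 20 and 58 with a mouse left out. With 3 mice per group and 1 tissue sample each, dissection and group cannot be told apart, and low genes near 1 RPKM rest on few reads.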

Other observations

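Transcripts of the mitochondrial genome were read unevenly along the molecule in every mouse. A neighboring set of genes, mt-Co2, mt-Atp8, mt-Atp6, and mt-Co3, had an RPKM between 4.61 and 12.9 in the 6 mice, whereas mt-Co1, next to mt-Co2 on the same strand, had 2551 to 3596 and mt-Nd1 1343 to 1955. The cause was not tested. The level of this set therefore cannot be compared with that of the other mitochondrial genes.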
